A study of Mus musculus with 61 samples.

Results

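The guanylate-binding proteins (GBPs) of the mouse are described here from RNA of adipose tissue in 8 inbred strains. The members are the rows of the deposited count table whose symbol is Gbp2, Gbp2b or any of Gbp3 to Gbp10. The table of 21169 genes held 11 such rows for 10 symbols, because 2 rows carry the symbol Gbp6. The row ENSMUSG00000104713 is Gbp6 in the GENCODE M21 annotation of the GRCm38 genome. The row ENSMUSG00000079362 is named Gm43302 there, and that name is used for it below. All 11 rows passed the filter on low counts, which left 18603 genes.

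The strains are those from which the Diversity Outbred mouse population was founded, and all mice had been fed a high-fat, high-sugar diet with 45 percent fat. The labelled groups are B6, NZO, NOD, PWK and WSB with 8 libraries each, and AJ, 129 and Cast with 7, 61 in all. No strain is a control, so each was set against the unweighted mean of the other 7, and all 28 pairs of strains were compared. The fat depot, sex, age and batch of the samples are not stated in the labels, and no label says whether the libraries of a strain came from separate mice, so p-values measure the spread between these libraries. Levels are given as CPM, counts scaled to library size with TMM factors. Summed marker levels, and Crisp1 levels of single libraries, are CPM without TMM factors. These factors ran from 0.768 in a WSB library to 1.24 in an NZO library, so marker sums of different strains are less strictly comparable. Differences come from the quasi-likelihood test of edgeR, and those under 0.05 after Benjamini-Hochberg adjustment over all genes tested were called.

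GBPs are large GTPases that interferon induces strongly, above all interferon gamma acting through its receptor and the JAK kinases. They assemble on the membranes of pathogen-containing vacuoles and on bacteria in the cytosol, where they help to break the membrane and to activate inflammasomes, often together with the immunity-related GTPases (IRGs). In fat, macrophages, endothelial cells and adipocytes can all respond to interferon. Mouse GBP genes lie in a cluster on chromosome 3 and another on chromosome 5.

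On chromosome 3, from low to high coordinates, lie Gbp5, Gbp7, Gbp3, Gbp2b and Gbp2, all on the plus strand, between chr3:142493978 and chr3:142638008. On chromosome 5 lie Gbp8, Gbp9, Gbp4, Gm43302, Gbp10 and Gbp6, all on the minus strand, between chr5:105014150 and chr5:105293698. All 11 are annotated as protein coding. The annotated spans of Gbp8, Gbp9 and Gbp4 overlap one another on the same strand. Gm43302 spans chr5:105214907-105293695 and overlaps both Gbp10 (chr5:105215699-105239533) and Gbp6 (chr5:105270702-105293698).

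Gm43302 is the row on which one of the results turns, and its sequence shows why it is hard to count. Of the 10 coding exons of its longest coding transcript, 9 sit at the positions of Gbp6 coding exons, and the last sits at the position of the last coding exon of Gbp10. The coding sequences of all 3 rows are 1836 bases long. Gm43302 differs from Gbp6 at 2 bases, at coding positions 1695 and 1770, both in the last coding exon, which begins after base 1650. Gbp10 differs from Gbp6 at 30 bases and from Gm43302 at 28, none of these 28 in the last coding exon. Coding bases 1561 to 1790 of the annotated transcripts are shown, 5′ to 3′, with capitals at the positions where the 3 rows are not all alike; these are GENCODE M21 reference sequences, not sequences of the strains.
Gbp6: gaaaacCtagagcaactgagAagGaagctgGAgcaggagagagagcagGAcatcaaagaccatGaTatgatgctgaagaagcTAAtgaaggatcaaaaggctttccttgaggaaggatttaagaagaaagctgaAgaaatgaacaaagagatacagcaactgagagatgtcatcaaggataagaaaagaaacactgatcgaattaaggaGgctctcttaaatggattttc
Gm43302: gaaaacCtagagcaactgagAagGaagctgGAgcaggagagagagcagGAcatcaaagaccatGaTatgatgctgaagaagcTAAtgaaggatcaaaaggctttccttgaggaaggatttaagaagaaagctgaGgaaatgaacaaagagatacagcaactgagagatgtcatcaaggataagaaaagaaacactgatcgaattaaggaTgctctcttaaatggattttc
Gbp10: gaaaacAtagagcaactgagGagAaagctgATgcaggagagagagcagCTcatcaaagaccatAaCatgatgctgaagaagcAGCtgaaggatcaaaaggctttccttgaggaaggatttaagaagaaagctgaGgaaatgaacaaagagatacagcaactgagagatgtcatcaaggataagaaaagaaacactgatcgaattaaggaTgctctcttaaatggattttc
In this stretch Gbp10 differs from Gbp6 at 14 bases and from Gm43302 at 12, and Gm43302 follows Gbp6 up to base 1650 and Gbp10 after it.

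**Figure D1:**
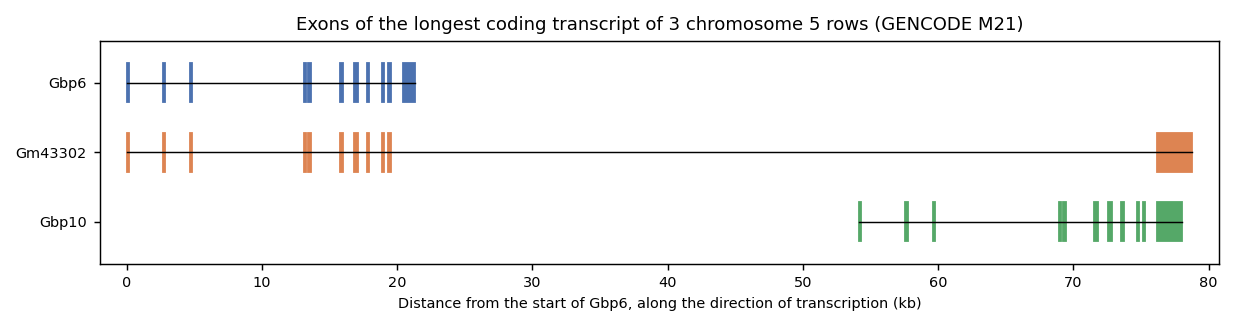
Exons of the longest coding transcript of Gbp6, Gm43302 and Gbp10 as blocks, with distance in kb along the direction of transcription from the start of Gbp6. The 11 exons of Gm43302 run along the first part of Gbp6 and end in the last exon of Gbp10.

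RefSeq promoters (GRCm38.p6, 250 bases before to 50 after the start of the gene) were at hand for the 5 chromosome 3 symbols. Interferon-stimulated response elements and gamma-activated sites are the DNA motifs through which interferon-activated factors are known to bind. They were searched as GAAANNGAAA, on either strand, and as TTCNNNGAA, which reads alike on both strands, and no match to one overlapped a match to the other in these promoters. GAAANNGAAA occurred in a promoter of all 5 symbols and of 3.99% of the 27025 symbols in the table. TTCNNNGAA occurred 2 times each in Gbp5 and in Gbp7, not in the other 3, and in a promoter of 9.55% of all symbols. Gbp3 has 2 annotated starts, and only the promoter of 1 of them held GAAANNGAAA, with 2 overlapping matches. The promoters of Gbp2b, Gbp2 and Gbp5 are shown on the plus strand, with the matches to either motif in capitals, because these neighbours follow different patterns over the strains.
Gbp2b, chr3:142594597-142594896: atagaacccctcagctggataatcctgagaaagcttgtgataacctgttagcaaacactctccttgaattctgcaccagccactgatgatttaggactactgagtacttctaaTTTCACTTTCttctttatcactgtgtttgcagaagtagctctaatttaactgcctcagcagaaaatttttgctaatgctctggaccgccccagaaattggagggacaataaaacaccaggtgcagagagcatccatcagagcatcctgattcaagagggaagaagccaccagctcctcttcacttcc
Gbp2, chr3:142620413-142620712: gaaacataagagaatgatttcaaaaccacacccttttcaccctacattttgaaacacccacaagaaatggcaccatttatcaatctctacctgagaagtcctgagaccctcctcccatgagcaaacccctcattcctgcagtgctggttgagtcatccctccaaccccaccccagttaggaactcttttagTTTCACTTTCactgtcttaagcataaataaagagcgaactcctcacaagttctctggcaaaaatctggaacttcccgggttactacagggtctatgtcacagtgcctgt
Gbp5, chr3:142496684-142496983: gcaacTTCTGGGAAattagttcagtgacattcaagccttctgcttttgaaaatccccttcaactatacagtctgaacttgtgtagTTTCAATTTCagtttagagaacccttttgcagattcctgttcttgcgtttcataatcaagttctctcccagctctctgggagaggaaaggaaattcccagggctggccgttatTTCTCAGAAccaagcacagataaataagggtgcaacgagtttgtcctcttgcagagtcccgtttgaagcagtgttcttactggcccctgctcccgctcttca
A match is a description of the letters in the window and not a measured site, and no strain's own sequence was at hand.

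Total counts ran from 19851580 to 61277576 per library, with a median of 38657683. The summed level of 8 adipocyte markers, among them Adipoq and Plin1, was 15708 to 43082 CPM, and none of them was at 0 in any library. Markers of other tissues reached high sums in a few libraries, up to 2001 CPM for 6 muscle markers in AJ and 1383 CPM for 6 liver markers in AJ. The sum of 7 neutrophil markers, 6 of them tested, reached 3384 CPM in NZO. In these whole-tissue samples, fewer cells of a type and less RNA per cell cannot be told apart. Of all values in the table, 21.1% were not whole, since the authors' counting divided reads among genes that share sequence. GRCm38 was made from C57BL/6J mice, and whether reads of the other strains were assigned with strain-specific sequence is not given in the sources used here, so the part that sequence differences play in the values was not tested.

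All 11 rows differed among the 8 strains in the F-test, where 89.9% of all genes were called. NZO had 9 of 11 rows higher and 1 lower, against 27.2% and 26.6% of all genes. B6 had 8 higher and 1 lower (all genes 14.6% and 11.7%), and AJ had 7 higher and 1 lower (13.4% and 9.59%). These counts take Gbp6, Gm43302 and Gbp10 as separate rows, although reads were divided among them. In NZO and B6 each of them was called higher. In AJ, Gm43302 and Gbp10 were higher and Gbp6 lower, while their sum was higher (0.56, adjusted p = 0.00832). WSB had 1 higher and 8 lower (25.6% and 23.7%), PWK 1 higher and 6 lower (24.6% and 19.0%), and Cast 3 higher and 6 lower (29.6% and 26.6%). Leaving out NZO replicate 5 gave 5 higher and 1 lower in NZO (26.8% and 25.3%), and leaving out Cast replicate 5 gave 0 higher and 7 lower in Cast (26.9% and 25.9%). Leaving out AJ replicates 3 and 4, which were high in muscle markers, gave 4 higher and 1 lower in AJ (10.6% and 7.56%), where Gbp8 (0.73, adjusted p = 0.134), Gbp7 (0.26, adjusted p = 0.335) and Gbp10 (0.32, adjusted p = 0.624) were no longer called. In 129, 1 row was higher and 2 lower (10.8% and 7.78%), and in NOD 1 was higher and 3 lower (14.7% and 11.8%). The 3 libraries of 129 with the lowest median over the GBP rows, replicates 6, 7 and 9, were among 6 libraries high in the epididymis marker Crisp1, the others being B6 replicates 5 and 6 and NOD replicate 6. Without these 6 libraries, 1 row was higher and 0 lower in 129 (6.06% and 4.28%), as Gbp3 (-0.33, adjusted p = 0.379) and Gbp5 were not called, and 6 were higher and 1 lower in B6 (10.6% and 7.04%). The median log2 fold change of the 11 rows was 0.58 in NZO, 0.68 in B6 and 0.52 in AJ, and -0.81 in WSB, -0.82 in Cast and -0.54 in PWK, while the median of all genes lay within -0.02 and 0.03 in these 6 strains.

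Over the 28 pairs, 181 differences of a GBP row were called of 308, and 37.1% of all gene and pair combinations were. The most different pair was NZO against WSB, in which all 11 rows were called, 10 of them higher in NZO and Gbp8 lower (55.9% of all genes called). The most alike pair was 129 against NOD, in which 1 of 11 rows was called, Gbp2b (10.5% of all genes). B6 against NZO gave 2 called rows, Gbp8 higher and Gbp2b lower in B6 (36.5% of all genes).

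**Figure D2:**
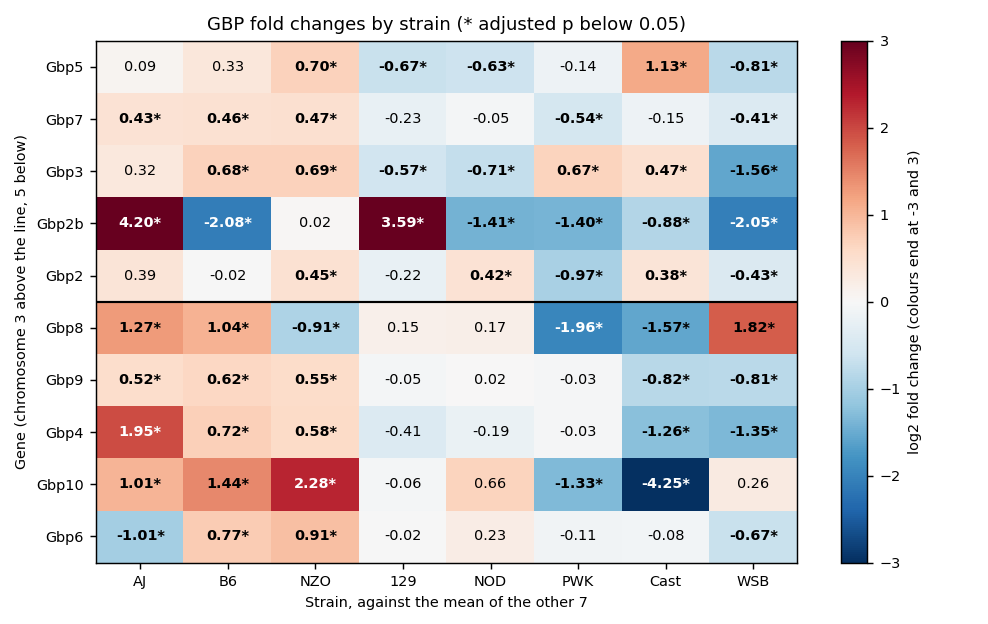
Log2 fold change of each GBP gene (rows) in each strain against the mean of the other 7 (columns), with the value in each cell and an asterisk where it was called. Red marks higher and blue lower; Gm43302 is left out because its folds against libraries near 0 depend on the prior count. AJ, B6 and NZO are mostly red, and PWK, Cast and WSB mostly blue. Called cells that break these columns are Gbp2b in B6, Gbp8 in NZO and WSB, Gbp6 in AJ, Gbp3 in PWK, and Gbp5, Gbp3 and Gbp2 in Cast.

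Gbp2b (ENSMUSG00000040264, chr3:142594847-142619179), formerly called Gbp1, is known from earlier work on inbred mice as a gene whose induction by interferon differs between strains. It had 44.3, 53.6 and 75.1 CPM (lowest, median, highest) in AJ. In 129 it had 31.2, 37.4 and 42.5 CPM. NZO had 2.27, 4.0 and 6.20 CPM, Cast 1.16, 2.46 and 4.07 CPM, and PWK 1.19, 1.77 and 2.59 CPM. NOD had 0.945, 1.76 and 3.45 CPM, WSB 0.401, 1.16 and 2.11 CPM, and B6 0.797, 1.14 and 2.07 CPM. The AJ and 129 libraries thus formed a high group that overlapped with no other strain, the highest library outside it being the 6.20 CPM of NZO.

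Against the other 7 strains, the log2 fold change of Gbp2b was 4.20 ± 0.14 (SE, adjusted p = 1.38e-31) in AJ and 3.59 ± 0.15 (adjusted p = 1.67e-27) in 129. AJ and 129 did not differ past the threshold (AJ minus 129 0.54 ± 0.25, adjusted p = 0.189). 129 exceeded NZO, the next strain, by 3.12 ± 0.26 (adjusted p = 1.2e-14), and NZO exceeded Cast by 0.79 ± 0.25 (adjusted p = 0.00625). Below Cast no neighbours in the order differed past the threshold. Strain accounted for 94.8% of the variance of log2 CPM of Gbp2b, against a median of 48.7% over all genes, and 85 of 18603 genes had a larger share.

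Gbp2 (ENSMUSG00000028270, chr3:142620602-142638008), a prenylated GBP that coats parasite vacuoles and bacteria, lies directly downstream and followed another order. Per kb of its longest coding transcript it was the most abundant GBP, with a mean over strains of 34.5 CPM per kb, followed by Gbp6 with 16.5, and Gbp8 was lowest with 0.656. Gbp2 averaged 109.7 ± 28.2 CPM in NZO, 107.8 ± 31.0 in NOD, 105.8 ± 9.0 in AJ and 105 ± 89.7 in Cast. It averaged 82.3 ± 13.3 CPM in B6, 72.9 ± 9.03 in 129, 64.3 ± 7.83 in WSB and 46.3 ± 11.2 in PWK (SD, n = 7 or 8). No neighbours in this order differed past the threshold, but PWK lay below the other 7 by -0.97 ± 0.18 (adjusted p = 8.05e-06) and WSB by -0.43 ± 0.17 (adjusted p = 0.029). The PWK libraries ran from 28.8 to 67.5 CPM and overlapped with those of WSB, 55.3 to 76.9 CPM.

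Coding sequences of Gbp2b and Gbp2 are 82.5% identical, and 1.84% of the 50-base windows of the Gbp2b transcript also occur in Gbp2. The counts of each row were whole in 29 of 61 libraries and their sum in all 61 (within 1e-04), so reads had been divided between them. Gbp2b made up 30.7% to 39.1% of the sum in AJ and 31.6% to 37.4% in 129, and at most 5.34% in any library of the other 6 strains. With both rows summed before the fit, AJ was higher than the other 7 by 0.87 ± 0.16 (adjusted p = 1.96e-05), while 129 was not called (0.26 ± 0.17, adjusted p = 0.291). PWK and WSB kept their lower calls, at -1.11 ± 0.18 (adjusted p = 6.24e-07) and -0.60 ± 0.17 (adjusted p = 0.00253). NZO, NOD and Cast, where Gbp2 alone was called higher, were not called for the sum (adjusted p = 0.0841, 0.251 and 0.269). The Gbp2 call of Cast was also lost without Cast replicate 5 (0.38 with it, -0.15 without it, adjusted p = 0.341), and that of NZO without NZO replicate 5 (0.34, adjusted p = 0.0707). The calls of NOD, the only higher call of that strain, and of Cast were not made by limma on the authors' log2 values (0.33, adjusted p = 0.0755, and 0.13, adjusted p = 0.463).

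Gbp3 (ENSMUSG00000028268, chr3:142560026-142573209) was lowest in WSB, with 6.33, 8.30 and 10.7 CPM. NOD had 9.01, 13.9 and 21.5 CPM and 129 had 10.4, 17.0 and 19.4 CPM, while the means of the other 5 strains lay between 25.9 and 32.4 CPM. The fold of WSB against the other 7 was -1.56 ± 0.19 (adjusted p = 1.13e-09). The order fell into 3 steps: NZO, B6, PWK, Cast and AJ did not differ from their neighbours past the threshold, AJ exceeded 129 by 0.78 ± 0.23 (adjusted p = 0.0201), and NOD exceeded WSB by 0.74 ± 0.22 (adjusted p = 0.00526). PWK, lower in most other rows, was higher here (0.67 ± 0.16, adjusted p = 0.000385). Against the other 7, 129 was lower (-0.57 ± 0.18, adjusted p = 0.021), but not called without the 6 libraries high in Crisp1 (-0.33, adjusted p = 0.379). AJ was not called (0.32 ± 0.17, adjusted p = 0.164), and its fold was 0.03 (adjusted p = 0.93) without AJ replicates 3 and 4. The step from AJ to 129 thus lies between strains whose folds moved when these libraries were left out.

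Gbp7 (ENSMUSG00000040253, chr3:142530342-142550149), which in mouse macrophages helps to bring the phagocyte oxidase and autophagy proteins to bacteria, varied least, with 42.9% of its variance between strains. Its means ran from 54.1 ± 24.6 CPM in NZO to 29.3 ± 4.62 CPM in PWK (SD, n = 8 each), and no neighbours in the order differed past the threshold. PWK was lower than the other 7 (-0.54 ± 0.16, adjusted p = 0.00536). WSB was also lower (-0.41 ± 0.16, adjusted p = 0.03), but without WSB replicate 7 this was not called (-0.39, adjusted p = 0.0514). Of its 50-base windows 2.28% occur in another GBP, nearly all in Gbp3, and its counts were whole in 8 of 61 libraries. Counts of Gbp3 were whole in 53 of 61 and the sum of Gbp7 and Gbp3 in 8, so reads of Gbp7 were also divided with rows other than Gbp3.

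Gbp5 (ENSMUSG00000105504, chr3:142493978-142522344), reported to promote assembly of the NLRP3 inflammasome, shares no 50-base window with another GBP, and its counts were whole in 59 of 61 libraries. It had 9.98, 16.2 and 106 CPM in Cast, and Cast replicate 5 alone gave the highest value, the next being 37.2 CPM. NZO had 14, 19.5 and 47.5 CPM. WSB had 5.82, 9.80 and 12.5 CPM, NOD 6.90, 10.8 and 15.8 CPM, and 129 7.68, 11.2 and 11.5 CPM. The fold of Cast was 1.13 ± 0.21 (adjusted p = 5.29e-06), and without Cast replicate 5 it was 0.35 ± 0.17 (adjusted p = 0.0829). WSB, 129 and NOD were lower, by -0.81 ± 0.23 (adjusted p = 0.00292), -0.67 ± 0.24 (adjusted p = 0.0437) and -0.63 ± 0.23 (adjusted p = 0.0321). The call of 129 was lost with the replicate number as a block (-0.55, adjusted p = 0.103), and those of 129 and NOD without the 6 libraries high in Crisp1 (-0.56, adjusted p = 0.275, and -0.59, adjusted p = 0.0814). Leaving out NZO replicate 5 ended the call of NZO, at 0.70 ± 0.20 (adjusted p = 0.00304) with it and 0.47 ± 0.21 (adjusted p = 0.0542) without it.

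**Figure D3:**
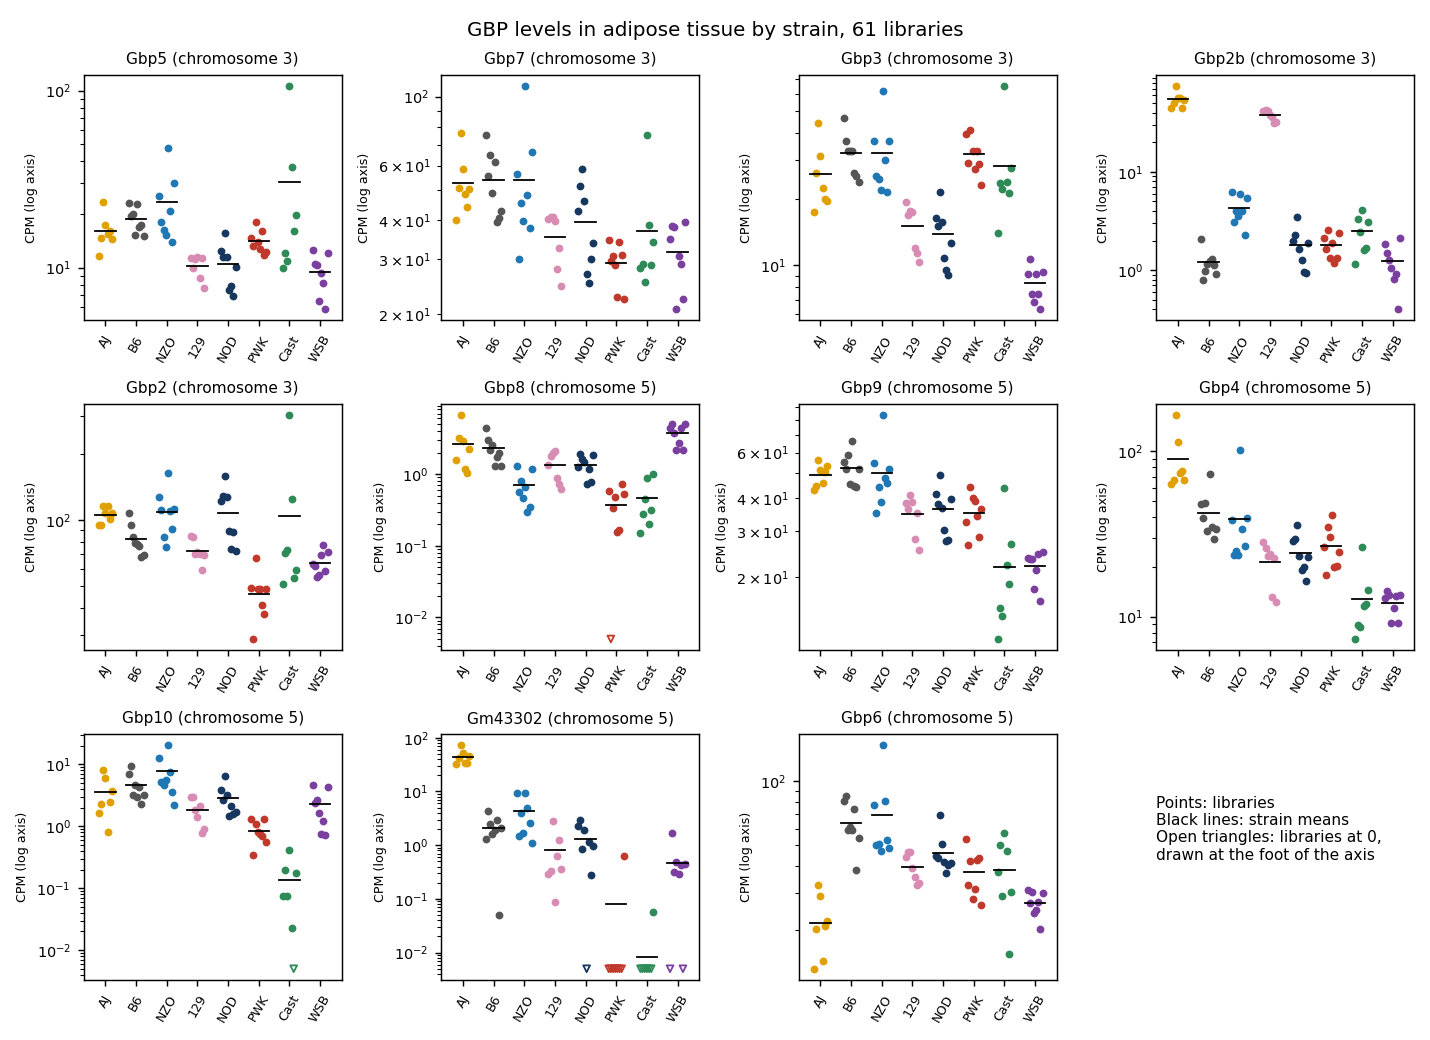
Level of each of the 11 GBP rows in CPM on log axes, by strain, 1 point per library with the strain mean as a black line and libraries at 0 as open triangles at the foot. Gbp2b is high in AJ and 129 only, Gm43302 in AJ only, and single libraries of Cast and NZO stand above the rest in several panels.

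On chromosome 5, Gbp4 (ENSMUSG00000079363, chr5:105115767-105139586), reported in mouse cells to restrain induction of type I interferon through IRF7, was highest in AJ with 63.5, 73.8 and 165 CPM. B6 had 29.5, 37.2 and 72.6 CPM, NZO 23.5, 30.4 and 102 CPM, PWK 17.8, 25.6 and 41.2 CPM, NOD 16.5, 23.1 and 35.7 CPM and 129 12.2, 23.4 and 28.2 CPM. Cast had 7.33, 11.6 and 26.5 CPM and WSB 9.11, 13.2 and 14.3 CPM. The lowest AJ library lay above every library of PWK, NOD, 129, Cast and WSB and below the highest of B6 and of NZO. AJ exceeded the other 7 by 1.95 ± 0.17 (adjusted p = 7.97e-14) and B6, the next strain, by 1.07 ± 0.26 (adjusted p = 0.00247). WSB and Cast were lower than the other 7, by -1.35 ± 0.21 (adjusted p = 6.6e-07) and -1.26 ± 0.23 (adjusted p = 4.04e-06), and did not differ from each other past the threshold.

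Gbp9 (ENSMUSG00000029298, chr5:105077630-105139539) ran from 52.4 ± 7.74 CPM in B6, 50.2 ± 14.8 in NZO and 49.3 ± 4.89 in AJ to 21.9 ± 3.23 in WSB and 21.8 ± 11 in Cast (SD, n = 7 or 8). The other 3 strains, NOD, PWK and 129, averaged 34.8 to 36.4 CPM. 129 exceeded WSB by 0.67 ± 0.17 (adjusted p = 0.0017), the only called step between neighbours. Against the other 7, WSB was lower by -0.81 ± 0.13 (adjusted p = 1.41e-06) and Cast by -0.82 ± 0.14 (adjusted p = 2.28e-06), and the Cast fold was -1.09 ± 0.13 without Cast replicate 5. Of the 50-base windows of Gbp9 and Gbp4, 9.56% and 12.8% occur in another GBP, and the counts of these rows were whole in 14 and 8 of 61 libraries.

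Gbp8 (ENSMUSG00000034438, chr5:105014150-105139540) was per kb the least abundant GBP and went against the family in several strains. It had 2.16, 4.07 and 5.07 CPM in WSB, against 0.294, 0.617 and 1.30 CPM in NZO, so the lowest WSB library lay above the highest of NZO. PWK had 0, 0.411 and 0.722 CPM and Cast 0.150, 0.318 and 1.01 CPM, and AJ had 1.02, 2.22 and 6.58 CPM. WSB, where 8 other rows were lower, exceeded the other 7 by 1.82 ± 0.27 (adjusted p = 1.17e-07). NZO, where 9 other rows were higher, was lower by -0.91 ± 0.34 (adjusted p = 0.0189). PWK and Cast were lower by -1.96 ± 0.37 (adjusted p = 1.69e-05) and -1.57 ± 0.38 (adjusted p = 0.000404). Of the 50-base windows of the Gbp8 transcript, 21.2% occur in another GBP, and its counts were whole in 21 of 61 libraries, so its level is uncertain to the extent that reads were divided. The largest share, 10.5%, occurs in Gbp11, a GBP gene outside the set. Gbp11 was also higher in WSB (2.77 ± 0.27, adjusted p = 1.17e-12) and lower in NZO (-1.19 ± 0.37, adjusted p = 0.00536). Unlike Gbp8, it was higher in PWK (1.62 ± 0.29, adjusted p = 6.52e-06) and not called in Cast (-0.10 ± 0.35, adjusted p = 0.833).

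Gbp6, named with Gbp7, Gbp10 and the present Gbp2b in work on defence of mouse macrophages against bacteria, was lowest in AJ, with 13.2, 20.8 and 32.4 CPM. WSB had 20.2, 27.0 and 30.9 CPM, NZO 47.3, 52.1 and 148 CPM, and B6 38.2, 60.1 and 84.9 CPM. The other 4 strains averaged 37.5 to 46.2 CPM. AJ lay below the other 7 by -1.01 ± 0.18 (adjusted p = 1.5e-05), WSB by -0.67 ± 0.16 (adjusted p = 0.000623), and NZO and B6 lay above by 0.91 ± 0.14 (adjusted p = 3.88e-07) and 0.77 ± 0.15 (adjusted p = 4.42e-05).

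The row Gm43302 showed the converse in AJ, with 32.5, 42.0 and 72.6 CPM. NZO had 1.08, 3.26 and 9.44 CPM and B6 0.0499, 2.00 and 4.27 CPM, while NOD, 129 and WSB averaged 1.3, 0.814 and 0.458 CPM. In PWK, 7 of 8 libraries rounded to 0 counts, and in Cast 6 of 7. The highest library outside AJ had 9.44 CPM, so AJ overlapped with no other strain. AJ exceeded NZO, the next strain, by 3.37 ± 0.69 (adjusted p = 8.65e-05).

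Gbp10 (ENSMUSG00000105096) averaged 7.68 ± 5.99 CPM in NZO, 4.6 ± 2.38 in B6, 3.56 ± 2.56 in AJ, 0.851 ± 0.349 in PWK and 0.137 ± 0.144 in Cast (SD, n = 7 or 8). The 7 Cast libraries together held 39.5 estimated counts. NZO was higher than the other 7 by 2.28 ± 0.29 (adjusted p = 1.51e-09) and PWK exceeded Cast by 2.55 ± 0.55 (adjusted p = 0.000137). The 8 NZO libraries ran from 2.21 to 20.3 CPM and the 7 Cast libraries from 0 to 0.419 CPM.

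These 3 rows cannot be read apart from one another. All 50-base windows of the Gm43302 transcript occur in another GBP, as do 90.2% of those of Gbp6 and 82.5% of those of Gbp10. Gbp6 was whole in 0 of 61 libraries, and the 6 chromosome 5 rows added up to a whole number in all 61 only together with Gbp11, a neighbouring GBP outside the set (9 of 61 without it). Gm43302 held 59.1% to 68.8% of the sum of Gbp6, Gm43302 and Gbp10 in AJ and at most 9.46% in any other library. The sum averaged 69.8 ± 23.5 CPM in AJ (n = 7), 81.6 ± 42.9 in NZO, 70.6 ± 18.3 in B6 and 29.5 ± 4.98 in WSB (n = 8 each). The sum of these 3 rows was whole in 24 of 61 libraries, so reads were also divided with rows outside it. With the 3 rows summed before the fit, AJ was higher than the other 7 by 0.56 ± 0.16 (adjusted p = 0.00832), the opposite of Gbp6 alone. B6 and NZO stayed higher, by 0.58 ± 0.15 (adjusted p = 0.00338) and 0.82 ± 0.15 (adjusted p = 7.78e-06), and WSB lower, by -0.86 ± 0.17 (adjusted p = 4.73e-05).

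**Figure D4:**
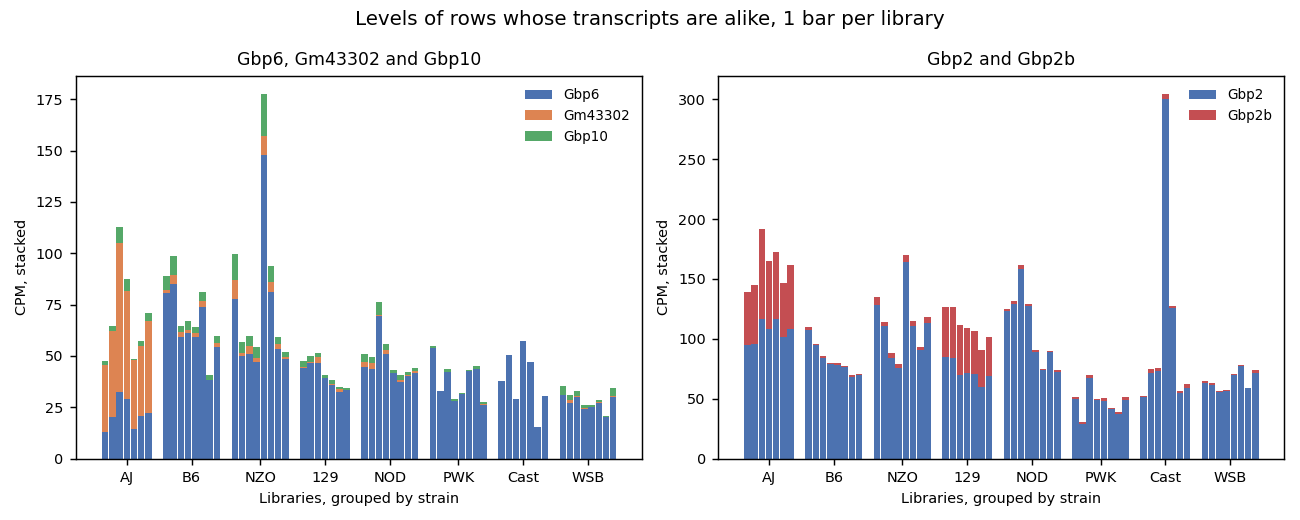
Stacked CPM of Gbp6, Gm43302 and Gbp10 (left) and of Gbp2 and Gbp2b (right), 1 bar per library, grouped by strain. In AJ, Gm43302 makes up 59.1% to 68.8% of the left bars, and Gbp2b makes up 30.7% to 39.1% of the right bars there and 31.6% to 37.4% in 129.

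Within strains the GBP rows tended to deviate in the same direction from library to library. Over the 61 libraries, with strain means of log2 CPM subtracted, the 55 pairs of rows had a Pearson r of 0.15 to 0.88 with a median of 0.56, and of 0.21 to 0.86 with a median of 0.54 without Cast replicate 5. The highest r was between the neighbours Gbp7 and Gbp3 (0.88), followed by Gbp9 and Gbp4 (0.88). The lowest was between Gbp2 and Gm43302 (0.15). These are descriptions over libraries that share depth and tissue make-up, and r of overlapping or alike rows also holds their shared reads.

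Cast replicate 5 and NZO replicate 5 stood farthest above their strains by the median over the rows. Cast replicate 5 lay above its strain mean in 10 of 11 rows, with a median of 1.14 on the log2 scale, and NZO replicate 5 in 11 of 11 with a median of 1.11. AJ replicate 3 (median 0.64), NOD replicate 3 (0.61), WSB replicate 9 (0.36), AJ replicate 4 (0.29) and NZO replicate 1 (0.27) also lay above in 11 of 11. In Cast replicate 5 Gbp2 reached 300.4 CPM, against 51.1 to 125 CPM in the other 6 Cast libraries. This library had the lowest adipocyte marker sum of all 61, 15708 CPM, and the highest macrophage sum of its strain, 2141 CPM. NZO replicate 5 had a macrophage sum of 3030 CPM, within the 2281 to 6915 CPM of its strain. The part of these marker levels in the GBP levels was not tested. Without Cast replicate 5, the higher calls of Cast were lost, since Gbp5, Gbp3 (0.11, adjusted p = 0.571) and Gbp2 (-0.15, adjusted p = 0.341) were not called, and Gbp7 was called lower (-0.42, adjusted p = 0.0281). Without NZO replicate 5, NZO lost 4 of its higher calls, as Gbp5, Gbp2 (0.34, adjusted p = 0.0707), Gbp7 (0.25, adjusted p = 0.144) and Gbp4 (0.20, adjusted p = 0.323) were not called.

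**Figure D5:**
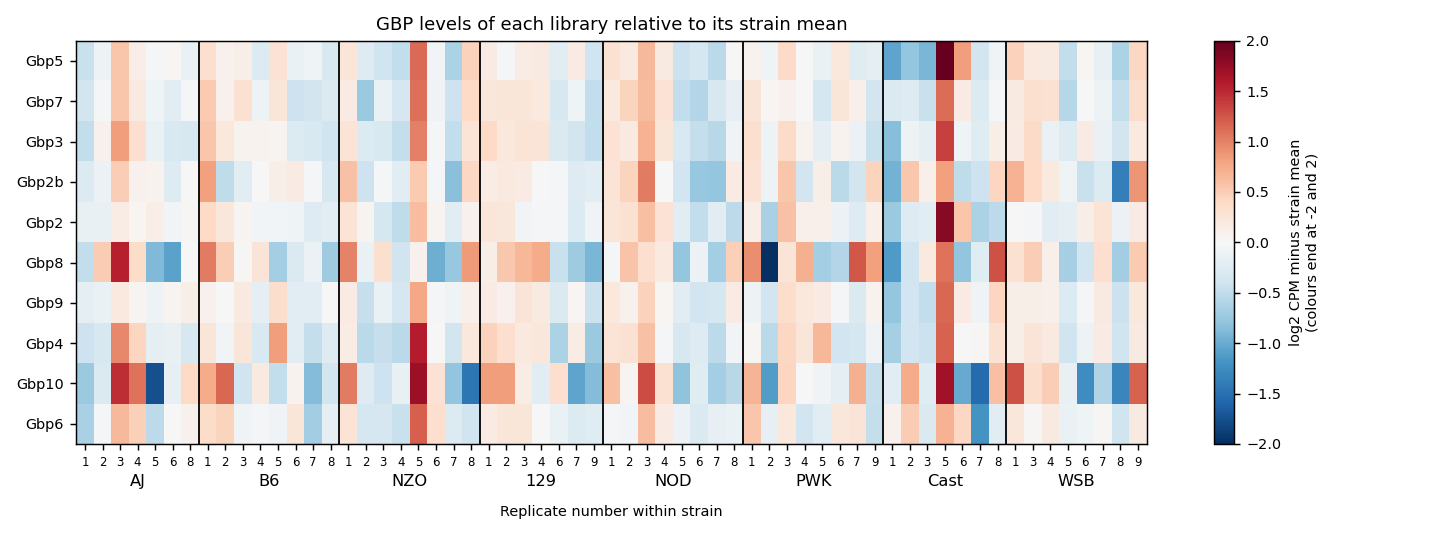
Log2 CPM of 10 GBP genes (rows) in each of 61 libraries (columns, by strain and replicate number) minus the mean of its strain, red above and blue below. Cast replicate 5 and NZO replicate 5 are red in nearly all rows, and columns tend to hold 1 colour.

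By the rule for likeness, the 3 genes with the highest r within strains were named for each row, passing over the members, Gbp11 and the kinds of gene given in the methods. The IRG gene Irgm2 was among them for Gbp7 (0.87), Gbp3 (0.85), Gbp6 (0.74), Gbp4 (0.69) and Gbp10 (0.67). Igtp, another IRG, was among them for Gbp7 (0.83), Gbp3 (0.82), Gbp6 (0.74) and Gbp4 (0.68), and Tgtp1 for Gbp7 (0.82) and Gbp4 (0.73). Gbp3 also had Xaf1 (0.81). Gbp5 was most like Parp14 (0.87), Xaf1 (0.86) and Stat2 (0.84). Without Cast replicate 5 its list read Igtp (0.81), Irgm2 (0.78) and Parp14 (0.76). Gbp9 was most like Xaf1 (0.81), Ifih1 (0.80) and Sp100 (0.78). Gbp2 was most like Lgals9 (0.83), Parp14 (0.83) and Sp100 (0.82), but without Cast replicate 5 its list read Dtx3l (0.71), Cdon (0.69) and Parp14 (0.69). Gbp2b was most like H2-T10 (0.69), Psmb9 (0.67) and Cmpk2 (0.66), and Gbp8 most like Sp110 (0.71), Sema4a (0.66) and Psmb9 (0.62). Gbp10 also had H2-Q6 (0.73) and H2-Q7 (0.66), Gbp6 had Apol9b (0.73), and Gm43302 had Irf2bp2, Lgr5 and Ctsw, all at 0.46 or lower. With Cast replicate 5 left out, Irgm2 left the list of Gbp10, Igtp that of Gbp4 and Xaf1 that of Gbp3. Sp100 left that of Gbp9, Cmpk2 that of Gbp2b and Psmb9 that of Gbp8. The lists of Gbp7, Gbp6 and Gm43302 named the same genes. Over the 8 strain means alone, Gbp9 was closest to Ifit3b (0.998), and each of the other 10 rows had some gene at 0.94 or more, as can occur with 8 points and 18603 genes.

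The other genes of the interferon pathway were taken from lists. Shares of all genes called higher and lower were 27.2% and 26.6% in NZO, 14.6% and 11.7% in B6, and 13.4% and 9.59% in AJ. They were 25.6% and 23.7% in WSB, 29.6% and 26.6% in Cast and 24.6% and 19.0% in PWK. In 129 they were 10.8% and 7.78%, and in NOD 14.7% and 11.8%. Counts of list genes and markers are to be read beside these shares. Of 22 tested genes of the interferon gamma pathway, 16 were higher and 0 lower in NZO, with a median log2 fold change of 0.45. Irf8, a transcription factor of myeloid cells, was higher by 2.00 ± 0.13 (adjusted p = 2.6e-19), Ciita, the activator of MHC class II genes, by 1.87 ± 0.17 (adjusted p = 1.35e-13), the chemokine Cxcl10 by 1.2 ± 0.31 (adjusted p = 0.00112) and the receptor subunit Ifngr2 by 1.01 ± 0.10 (adjusted p = 5.11e-13). Ifng itself was in the table but did not pass the filter on low counts. Without NZO replicate 5, 15 were higher and 0 lower.

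In Cast, 2 genes of this list were higher and 14 lower (median -0.26). Ciita (-2.91 ± 0.28, adjusted p = 3.75e-13) and Irf8 (-1.41 ± 0.18, adjusted p = 2.99e-09) were lower, and Ido1 (2.62 ± 0.34, adjusted p = 3.92e-09) and Cxcl10 (1.26 ± 0.33, adjusted p = 0.000983) higher. Without Cast replicate 5, 1 was higher and 17 lower. WSB had 3 higher and 8 lower (median -0.15), among them Irf8 (-1.46 ± 0.17, adjusted p = 6.2e-10), and AJ had 6 higher and 0 lower, but 1 and 0 without AJ replicates 3 and 4. In B6, where 8 GBP rows were higher, 3 of 22 were higher and 0 lower, namely Ciita (1.37 ± 0.18, adjusted p = 2.31e-08), Cxcl9 (0.77 ± 0.23, adjusted p = 0.00896) and Irf8 (0.58 ± 0.14, adjusted p = 0.00169). Without Cast replicate 5 the B6 counts were 5 and 0.

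Of 12 IRGs in NZO, 11 were higher and 0 lower (median 1.61), in B6 10 and 0 (median 1.61) and in AJ 10 and 0 (median 1.40). In Cast, 2 were higher and 7 lower (median -1.46), in WSB 3 and 5 (median -0.41) and in PWK 1 and 5 (median -0.22). The AJ counts were 5 and 0 without AJ replicates 3 and 4, and the PWK counts were 2 and 4 without Cast replicate 5 and 2 and 5 without NZO replicate 5. Iigp1, an effector that loads onto parasite vacuoles, averaged 67.5 ± 38.4 CPM in NZO, against a mean over the other strains of 26.2 CPM (2.24 ± 0.27, adjusted p = 6.15e-10). In Cast it averaged 0.374 ± 0.785 CPM, against a mean over the other strains of 35.8 CPM. Tgtp1 averaged 0.334 ± 0.154 CPM in WSB, against 12 CPM over the other strains (-5.04 ± 0.41, adjusted p = 3.04e-15), while Gm4951 was higher there (1.64 ± 0.33, adjusted p = 4.36e-05). Without NZO replicate 5 the counts were 10 and 0 in NZO, and without Cast replicate 5 they were 2 and 8 in Cast. Many IRGs have near copies, so their rows are uncertain in the same way as those of the GBPs.

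Of 16 genes of the type I interferon response, 15 were higher and 0 lower in NZO (median 0.81), and 9 and 0 in B6 (median 0.50). WSB had 0 higher and 12 lower (median -0.63) and Cast 1 and 9 (median -0.44). PWK, where 6 GBP rows were lower, had 5 higher and 2 lower (median 0.08), with Xaf1 higher (1.42 ± 0.14, adjusted p = 2.91e-12) and Ifit3 lower (-2.39 ± 0.35, adjusted p = 9.06e-08). Without NZO replicate 5 the NZO counts were 12 and 0, and without Cast replicate 5 the Cast counts were 0 and 14. Rsad2, an antiviral enzyme, was higher in NZO (1.72 ± 0.22, adjusted p = 1.9e-09) and B6 (1.40 ± 0.22, adjusted p = 1.88e-06) and lower in WSB (-1.86 ± 0.30, adjusted p = 7.72e-07). In AJ, where 7 GBP rows were higher, 1 gene of this list was higher and 0 lower, the gene being Ifi44 (0.96 ± 0.30, adjusted p = 0.0133). The AJ counts were 5 and 1 without Cast replicate 5, and 0 and 0 without AJ replicates 3 and 4.

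Of 11 genes of inflammasomes, on which GBPs act, 8 were higher and 1 lower in NZO (median 0.76), among them Nlrc4 (1.77 ± 0.14, adjusted p = 1.62e-16), Aim2 (1.72 ± 0.12, adjusted p = 1.12e-17) and Casp1 (1.23 ± 0.13, adjusted p = 4.66e-12). WSB had 0 higher and 6 lower (median -0.41), with Pycard, the adaptor of inflammasomes, at 0.889 ± 0.326 CPM, against 4.83 CPM over the other strains (-2.40 ± 0.22, adjusted p = 2.52e-13). B6 and AJ, with high GBP levels, had 1 higher and 0 lower, and 0 higher and 1 lower, and the B6 count was 0 and 0 without the 6 libraries high in Crisp1, as was that of AJ. Of 6 enzymes that prenylate GBPs or process the prenylated tail, at most 3 were called in 1 direction in any strain. Of 10 genes of autophagy conjugation, 8 were higher and 1 lower in Cast (all genes 29.6% and 26.6%). WSB had 6 and 1 (25.6% and 23.7%) and NZO 2 and 5 (27.2% and 26.6%). The 4 related GTPases, Gbp11 and the atlastins, had 1 higher and 3 lower in NZO. Gbp11, with which reads of the chromosome 5 rows were divided, averaged 27.5 ± 18.9 CPM in WSB and 13.6 ± 8.29 CPM in PWK (SD). Its means in the other strains ran from 2.25 CPM in 129 to 5.19 CPM in AJ. The part of this division in the levels of the chromosome 5 rows was not tested.

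Markers of immune cells moved with strain as well. Of 9 tested macrophage markers, 8 were higher and 1 lower in NZO. The sum of the listed macrophage markers was 2281 to 6915 CPM there, against 415 to 2781 CPM in the other 7 strains. In WSB, 0 were higher and 8 lower, with a sum of 533 to 945 CPM. The 10 markers of T and NK cells were all higher in NZO, at 14.2 to 48.7 CPM, all lower in Cast, at 0.747 to 3.16 CPM, and 7 of 10 were higher in B6, at 8.32 to 13.8 CPM. In WSB, where 8 GBP rows were lower, 5 of these 10 were higher and 1 lower, and in NOD 5 and 2. The counts were 1 and 1 in AJ, 1 and 2 in PWK and 0 and 2 in 129. All 6 B cell markers were higher in NZO and lower in Cast and in WSB, and 5 of 6 were higher in B6. All 6 tested neutrophil markers were higher in NZO, where the sum of all 7 listed ones ran from 7.04 to 3384 CPM. The 3384 CPM was that of NZO replicate 8 alone, and the other NZO libraries had 7.04 to 32.1 CPM, below the 394 CPM of PWK replicate 6. NZO replicate 8 also had a B cell sum of 3536 CPM, against 295 to 756 CPM in the other NZO libraries. Of 8 adipocyte markers, 6 were lower in NZO and 5 were higher in WSB. Of 8 endothelial markers 3 were higher in NZO, where 27.2% of all genes were. AJ, with 7 GBP rows higher, had 0 of 9 macrophage markers and 0 of 6 B cell markers called in either direction, with 3 of 8 endothelial and all 6 muscle markers higher. The muscle sum was 791 CPM in AJ replicate 3 and 2001 CPM in AJ replicate 4, against 49.5 to 93.6 CPM in the other 5 AJ libraries, and 0 of 6 muscle markers were called without these 2 libraries, both of which lay above their strain mean in 11 of 11 GBP rows. In PWK all 6 liver markers were higher. Of the defining markers, none of the adipocyte, macrophage, B cell or endothelial lists was at 0 in any library, while some of the T and NK cell, neutrophil, liver and muscle lists were in some. Of 5 epididymis markers 1 was in the table, Crisp1, a secreted sperm-coating protein. It had 904 CPM in 129 replicate 6, 302 CPM in 129 replicate 7, 1009 CPM in 129 replicate 9, 296 CPM in B6 replicate 5, 1038 CPM in B6 replicate 6 and 1280 CPM in NOD replicate 6, and at most 9.48 CPM in every other library. Crisp1 was higher in 129 (7.33 ± 1.01, adjusted p = 8.57e-08), B6 (6.18 ± 1.00, adjusted p = 2.35e-06) and NOD (6.18 ± 1.00, adjusted p = 2.55e-06). Without these 6 libraries it was called higher in B6 and Cast and not in 129 or NOD. The median deviation of the GBP rows was -0.22, -0.26 and -0.46 in the 3 libraries of 129, 0.11 and -0.14 in those of B6 and -0.35 in that of NOD. The part of these cell and tissue markers in the strain differences of GBPs was not tested.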

How the data were processed

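Per the labels' protocols, RNA of adipose tissue was poly(A)-selected and made into mRNA libraries with an added spike-in control. Expected counts per gene were deposited by the authors, in which reads that match several genes are divided, and log2 values from the variance-stabilising transformation of DESeq2, whose version is not given; per the submitters' processing notes the build was GRCm38. The aligner, the counter and its use of strand are not given in the sources used here. Gene positions deposited by the authors equalled those of GENCODE M21.

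Here the expected counts were rounded, genes were filtered by filterByExpr (18603 of 21169 kept), TMM factors were applied, and edgeR 4.0.16 (R 4.3.3) was run with 1 mean per strain and robust quasi-likelihood dispersion. All tests were 2-sided and adjusted over all genes of each contrast. A standard error is the fold change divided by the square root of F. Logged CPM used a prior count of 2. Depth, 19851580 to 61277576 counts per library, limits rows near 0. The procedure was tested on simulated data. Transcripts were compared in Biopython 1.88 under Python 3.11.15. The 10 alternatives planned were RLE size factors, no filter, DESeq2 1.42.0, limma 3.58.1 on the log2 values, the replicate number as a block, Xist as a covariate and 4 fits without named libraries. The fits without Cast replicate 5, without NZO replicate 5, without AJ replicates 3 and 4, without the 6 libraries high in Crisp1 and with rows summed were added after seeing the data. The GBP members, the gene lists and the tests were chosen with earlier results of these data known. By the rule for naming, all members are named, with up to 4 called genes of a list, those of the largest fold, in the strains with most GBP calls, and the member farthest the other way. For likeness the 3 genes closest to each member are named, passing over the members, Gbp11, Xist, predicted genes and clone names. Repeated symbols, ribosomal protein pseudogenes and variable segments of immune receptors were passed over as well.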

Additional observations from a re-analysis of the deposited data

Results flagged for a closer look

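Each of 88 groups, formed by the 11 GBP rows in the 8 strains, was searched for a library far from the others of its strain, and 5 had one; chance gives about 1 in 20 groups. Gbp7 had 75.5 CPM in Cast replicate 5, against 25.3 to 38.8 CPM in the other 6 Cast libraries. Gbp4 had 102 CPM in NZO replicate 5, against 23.5 to 39.6 CPM in the other 7 NZO libraries. Gm43302 had 0.0499 CPM in B6 replicate 7, against 1.33 to 4.27 CPM in the other 7 B6 libraries. Gm43302 also had 0.0577 CPM in Cast replicate 8 and 0.643 CPM in PWK replicate 9, while all other libraries of these strains were at 0. Where all others are at 0 any count stands apart by construction, so these 2 groups say nothing beside the rate that chance gives.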

How the results depend on the processing

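All 11 GBP rows differed among strains, 10 rows were called in NZO, and 181 calls were made over the pairs; no setting listed in the methods moved these counts by more than 1.5 times except leaving out NZO replicate 5, which left 6 calls in NZO, and over the fits without 1 library the NZO count ran from 6 to 10. Of the other strains, AJ had 5 called rows without its replicates 3 and 4, against 8 with them, and 129 had 1 without the 6 libraries high in Crisp1, against 3 with them. Of the 59 calls of a row in a strain, RLE size factors, DESeq2 and the fit without NZO replicate 8 kept 59. No filter and Xist as a covariate each kept 58, as did the fits without Cast replicate 8 and without WSB replicate 7. The fit without AJ replicates 3 and 4 kept 55, losing Gbp5 in 129 (-0.65, adjusted p = 0.0556) and 3 calls in AJ, and that without the 6 libraries high in Crisp1 kept 52, losing, beside Gbp3 and Gbp5 in 129 and Gbp5 in NOD, Gbp7 in AJ and B6 (adjusted p = 0.0708 and 0.0509), Gm43302 in B6 (0.0634) and Gbp2 in Cast (0.083). Limma on the log2 values kept 53, losing Gbp5 in 129 (adjusted p = 0.0648), Gbp10 in AJ (0.183), Gm43302 in B6 (0.758), Gbp3 and Gbp2 in Cast (0.0812 and 0.463) and Gbp2 in NOD (0.0755), and so left 0 higher in NOD and 1 in Cast. The replicate numbers were not taken to pair the libraries, since no label says what they share. Not every same-numbered pair had an r over 0.1, a strict rule that numbers sharing something could also fail. Of the same-numbered pairs from different strains, 96 of 186 did (median r 0.11), against 418 of 1441 of the other pairs (median -0.02), and 21 of 61 libraries were closest to their own number, a hint that numbers share something. With the replicate block 55 calls were kept, and those lost were Gbp5 in 129 (-0.55, adjusted p = 0.103), Gbp7 in AJ (0.39, adjusted p = 0.0653), Gbp2 in Cast (0.27, adjusted p = 0.175) and Gbp7 in WSB (-0.37, adjusted p = 0.0519).

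Reversed directions were Gbp2 in Cast without Cast replicate 5 (-0.15) and without Cast replicates 5 and 6 (-0.38), against 0.48 without Cast replicate 8, Gbp5 in Cast without replicates 5 and 6 (-0.0054), and Gbp6 in AJ when summed with Gm43302 and Gbp10 (0.56). The cause was not tested, except that the summed row is made mostly of Gm43302 in AJ. Depth limits Gm43302 in Cast and PWK and Gbp10 in Cast.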
